A study of Mus musculus with 4 samples.

Results

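Feedback inhibitors of Wnt signalling and parts of the β-catenin destruction complex were followed in resting mouse myoblasts with and without Wnt3A. The 8 genes were Axin2, Nkd1, Nkd2, Notum and Apcdd1 (the feedback inhibitors) and Axin1, Apc and Gsk3b (the constitutive complex). They were followed through all probe sets that the platform annotation gives to one of these symbols, by current symbol or older alias, which were 16 of the 22626 probe sets that are not array controls, or 8 of 12393 named genes. The cells were C2C12, an established mouse myoblast line, kept for 48 hours in suspension in semi-solid methyl cellulose, which stops them in G0, where cells rest and can still return to division. One group of 2 Affymetrix arrays was the control and the other group of 2 received purified Wnt3A at 50 ng/ml. Both groups came from the same line, grown in serum-containing medium and held in suspension, and no dividing cultures are part of the comparison. The labels call the arrays of a group biological replicates and do not say whether the cultures were started apart, so a p-value here measures the spread between these arrays only.

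In the absence of Wnt, β-catenin is held by a destruction complex in which AXIN1 and APC are the scaffolds and GSK3β, with casein kinase 1, phosphorylates it for degradation. A Wnt ligand stops this complex, and the stabilised β-catenin then acts with LEF/TCF factors on target genes. Several of these targets are inhibitors of the same pathway and form a negative feedback loop. AXIN2 rebuilds the destruction complex, NKD1 and NKD2 bind Dishevelled, NOTUM removes the lipid that Wnt proteins need for activity, and APCDD1 binds Wnt ligands and receptors at the cell surface.

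Signals were used as deposited and taken as log2 values; every difference below has the control mean subtracted from the Wnt3A mean. The 4 arrays had medians between 4.15 and 4.22 and correlated pairwise at 0.947 to 0.983 across probe sets, closest between control replicate 1 and Wnt3A replicate 1. Of 9 markers of myoblasts and muscle differentiation all were above the limit for dim probe sets, a mean signal of 2.01 over the 4 arrays. Myod1, the myogenic determination factor, read 6.84 and 7.11 in the controls and 6.32 and 3.62 under Wnt3A, so that Wnt3A replicate 2 stood apart. Myf5 went the other way, with 6.57 and 5.985 in the controls and 7.77 and 7.65 under Wnt3A. Of the 9 genes 1 was higher and 8 were lower with Wnt3A, 1 and 4 of them without overlap of the groups. Of all genes tested, 14.7% were higher and 19.8% lower without overlap. The summed signal of the 9 genes, as log2, was 10.87 and 11.75 in the controls and 10.74 and 10.27 under Wnt3A. All 5 proliferation markers on the array were above the limit, with means of 5.91 (Cdk1), 5.68 (Top2a), 4.75 (Mki67), 4.31 (Ccna2) and 3.34 (Aurkb). Without dividing cultures in the comparison, whether these signals are low for the line was not tested. The 5 were higher in replicate 2 than in replicate 1 in both groups. Their summed signals were 6.92 and 8.10 in the controls and 6.99 and 7.70 under Wnt3A. Of the markers of other cell types, 9 were under the limit: Ptprc of leukocytes, Pecam1, Cdh5 and Tek of endothelium, Epcam, Cdh1 and Krt18 of epithelium, Adipoq of adipocytes and Ibsp of osteoblasts. Above it, by their mean over the 4 arrays, were Csf1r (3.84), Cd68 (2.94) and Adgre1 (2.13) of the leukocyte list, Kdr (2.30) of endothelium and Krt8 (2.57) of epithelium. Fabp4 (3.12) and Pparg (3.25) of adipocytes and Sp7 (3.33) and Alpl (2.61) of osteoblasts were above it too. Alpl read 1.80 and 1.61 in the controls, under the limit, and 3.15 and 3.88 under Wnt3A. Adgre1 was not tested, as the limit for genes by their brightest probe set was 2.18. Csf1r read 3.26 and 3.40 in the controls and 3.53 and 5.19 under Wnt3A, so that Wnt3A replicate 2 stood apart. The summed signal of the 4 leukocyte markers was 4.52 to 4.62 in control and 4.71 to 5.70 with Wnt3A, and that of the 4 endothelial markers 3.80 to 3.92 and 3.70 to 3.73. For the 4 epithelial markers it was 3.87 to 3.90 and 3.72 to 3.81, and for the 4 fibroblast genes, none of them under the limit, 9.73 to 9.81 and 8.58 to 9.06. The 3 adipocyte genes summed to 4.72 to 5.26 and 3.75 to 3.81, and the 3 osteoblast genes to 3.85 to 4.01 and 4.43 to 4.85. The part of these shifts in the results that follow was not tested. In RNA from whole cultures, a change in the number of cells that use a gene and a change per cell cannot be told apart.

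Of the 10 probe sets of feedback inhibitors, 7 passed the limit for dim probe sets and all 7 were higher with Wnt3A, each with both Wnt3A arrays above both control arrays. They were 1 of Axin2, 2 of Nkd2, 1 of Notum and 3 of Apcdd1, and probe sets of the same gene are not independent. Among all 16969 probe sets tested, 15.1% were higher without overlap of the groups. Of the 6 probe sets of Axin1, Apc and Gsk3b, 5 passed; 4 were lower, 2 of them without overlap (17.9% of all tested), and 1 was higher, none by 2-fold (1.7% of all were at least 2-fold lower without overlap). The median difference was 0.86 over the 7 feedback probe sets, -0.16 over the 5 of the complex, and -0.00371 over all probe sets tested. Differences of at least 2-fold without overlap were found for 3 member probe sets, 1 of Axin2 and 2 of Nkd2, all higher with Wnt3A, where 1.34% of all tested probe sets met that rule in that direction. In either direction that rule was met by 515 of all 16969. Without control replicate 1 the count of 3 members was 5 (787 of all) and without control replicate 2 it was 4 (899 of all). Without Wnt3A replicate 1 it was 3 (1531 of all) and without Wnt3A replicate 2 it was 6 (565 of all), under a rule that 3 arrays meet more easily. With the dimmer 50% left out it was 1 of 7 tested members and 386 of 11313 probe sets. None of the 12 tested member probe sets passed an adjusted p of 0.05 in limma, and neither did any of the 16969 (0%). At an unadjusted p under 0.05 in limma there were 5 member probe sets and 839 in all, or 4.94%. An exact permutation test of 2 arrays against 2 cannot give a two-sided p under 0.333, so no single probe set could pass one.

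**Figure D1:**
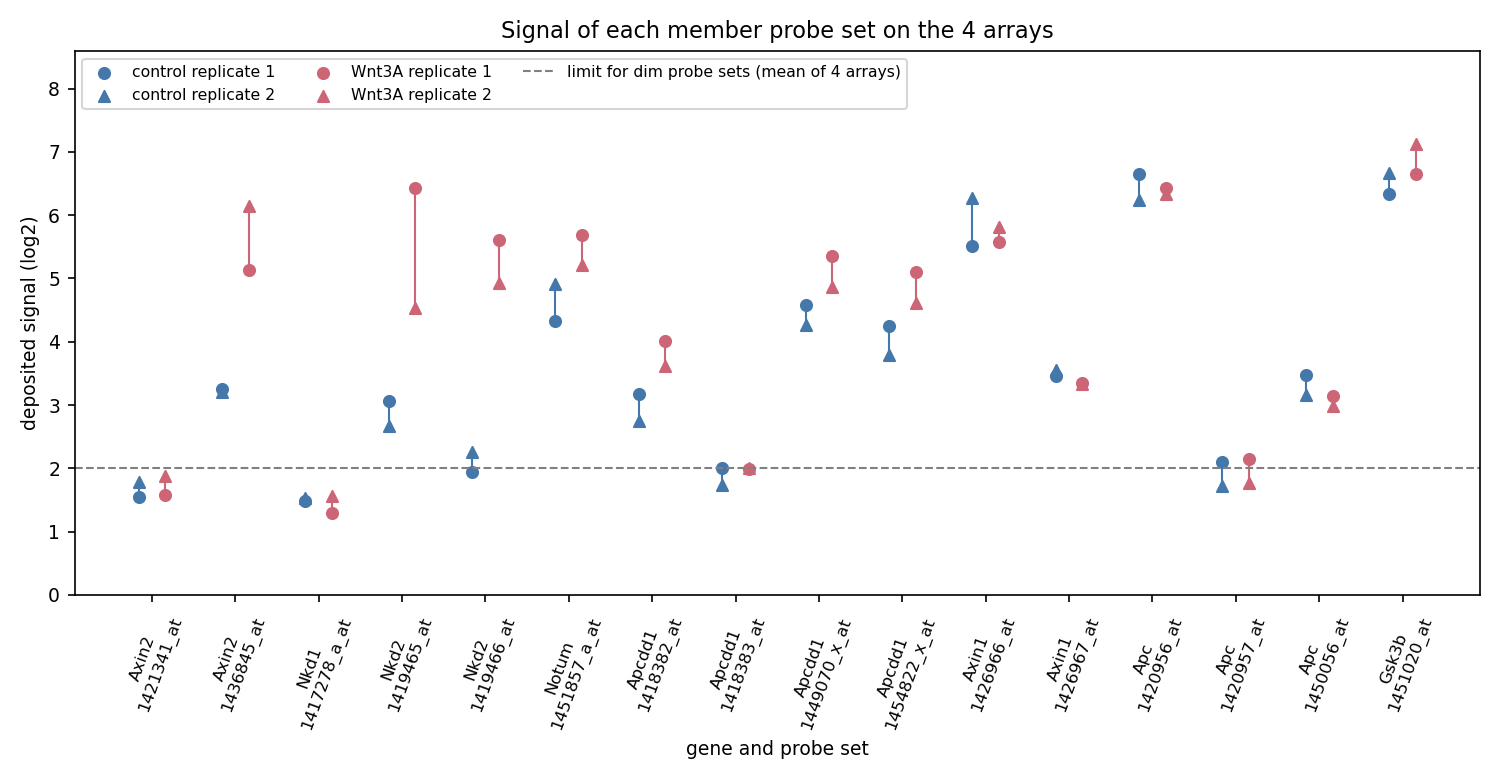
Deposited log2 signal (vertical axis) of the 16 member probe sets on the 4 arrays; circles are replicate 1, triangles replicate 2, blue is control and red Wnt3A, a line joins the 2 arrays of a group, and the dashed line at 2.01 is the limit for dim probe sets. The Axin2 probe set 1436845_at and both Nkd2 probe sets show the widest gaps between groups, while the groups of Axin1, Apc and Gsk3b overlap or lie within 0.11 of each other.

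Axin2, the axin gene that is itself a target of the pathway, was higher with Wnt3A by the brighter of its probe sets. That probe set, 1436845_at, read 3.25 and 3.21 on the control arrays and 5.13 and 6.14 on the Wnt3A arrays. The control arrays were nearly equal, and the lowest Wnt3A array lay 1.88 above the highest control. The means were 3.23 ± 0.02 and 5.64 ± 0.72 (SD, n = 2 per group), a difference of 2.41 (standard error 0.39, 95% confidence interval from 1.39 to 3.43; limma gave an adjusted p = 0.535). As a fold this is 5.30 (interval 2.62 to 10.7), if the deposited values are log2. It was the 25th widest difference upwards among the 16969 probe sets and the 60th by p. The other Axin2 probe set, 1421341_at, read 1.55 and 1.78 in the controls and 1.58 and 1.87 under Wnt3A, with a difference of 0.06. It lay under the limit for dim probe sets on all 4 arrays and did not separate the groups, so the result for Axin2 rests on 1 of its 2 probe sets. When both were averaged before the fit, the difference was 1.23.

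Nkd2 was the member with the widest difference, and both of its probe sets showed it. Probe set 1419466_at read 1.94 and 2.27 in the controls and 5.61 and 4.93 under Wnt3A. The groups stood 2.66 apart at their nearest arrays. Its difference was 3.17 (SE 0.31, interval 2.36 to 3.98; limma adjusted p = 0.307), or 8.98-fold (interval 5.12 to 15.8), the 8th widest upwards and the 9th by p of all probe sets tested. Control replicate 1 was under the limit of 2.01 there, and the fold rests on control signals near background; with signals under the limit raised to it the difference was 3.13. Probe set 1419465_at read 3.06 and 2.66 in the controls and 6.42 and 4.54 under Wnt3A. Here the Wnt3A arrays were 1.88 apart, wider than the gap of 1.48 to the controls. Its means were 2.86 ± 0.28 and 5.48 ± 1.33 (SD, n = 2), a difference of 2.62 (SE 0.66, interval 0.91 to 4.33; limma adjusted p = 0.789). Without Wnt3A replicate 1 this difference was 1.68. The 2 probe sets were derived from the same source sequence and are no independent evidence.

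The promoters of Axin2 and Nkd2 are shown because these were the members at least 2-fold apart. Each is the 250 bases before the RefSeq start in GRCm38.p6, 5′ to 3′ on the strand of the gene; capitals mark GC boxes, GGGCGG on either strand, to which Sp1-type factors can bind. The Axin2 window lies at chr11:108920099-108920348 on the plus strand and the Nkd2 window at chr13:73847632-73847881 on the minus strand.
Axin2: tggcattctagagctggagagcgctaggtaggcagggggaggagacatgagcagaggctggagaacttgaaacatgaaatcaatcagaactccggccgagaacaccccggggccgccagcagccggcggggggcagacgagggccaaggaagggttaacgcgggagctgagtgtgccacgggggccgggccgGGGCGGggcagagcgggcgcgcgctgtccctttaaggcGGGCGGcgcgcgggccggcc
Nkd2: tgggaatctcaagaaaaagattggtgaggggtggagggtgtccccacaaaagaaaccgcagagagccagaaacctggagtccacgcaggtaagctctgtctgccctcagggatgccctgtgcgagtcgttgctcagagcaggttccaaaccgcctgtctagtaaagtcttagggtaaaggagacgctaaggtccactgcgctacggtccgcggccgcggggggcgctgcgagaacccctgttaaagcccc
The Axin2 window is 69.2% G and C and holds 2 GC boxes. At least 1 GC box is in 32.7% of the 32851 promoter windows of that length. The Nkd2 window, with 58.4% G and C, holds 0 GC boxes. The median window is 52.4% G and C. The letters of the LEF/TCF core, CTTTG on either strand, are in neither window, while 48.6% of all windows hold them. The longer forms CTTTGAT and CTTTGAA, which contain that core, are in 3.21% and 4.46% of windows and in neither of these. Among the other members, the table also had windows for Nkd1, with 0 core matches and 0 GC boxes, and for Gsk3b, with 1 core match and 0 GC boxes. A missing match says only that these letters are not in these 250 bases.

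Nkd1, the paralogue of Nkd2, was dim on every array. Its 1 probe set read 1.48 and 1.53 in the controls and 1.29 and 1.56 under Wnt3A. The groups overlapped with a difference of -0.08, and since all 4 signals were under the limit of 2.01 it was not tested. A fall or a rise of Nkd1 could have gone undetected at this signal. The dim Axin2 probe set 1421341_at differed by 0.06 where the brighter one, 1436845_at, differed by 2.41. Whether the Nkd1 probe set would show a wide rise was not tested.

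Notum, the carboxylesterase that inactivates Wnt ligands, was measured by 1 probe set. It read 4.33 and 4.91 in the controls and 5.68 and 5.21 under Wnt3A. The groups did not overlap, with 0.30 between the nearest arrays, which is less than the 0.58 between the control arrays. The difference was 0.83 (SE 0.32, interval -0.02 to 1.67; limma adjusted p = 0.977). It was 0.54 without control replicate 1.

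Apcdd1, a membrane-bound Wnt inhibitor, had 4 probe sets, 3 of them from the same source sequence. Probe set 1418382_at read 3.17 and 2.75 in the controls and 4.02 and 3.62 under Wnt3A, a difference of 0.86 (SE 0.26, interval 0.18 to 1.54; limma adjusted p = 0.880). Probe set 1454822_x_at read 4.25 and 3.79 in the controls and 5.10 and 4.62 under Wnt3A, a difference of 0.84. Probe set 1449070_x_at read 4.57 and 4.26 and then 5.36 and 4.86, a difference of 0.69. In these 3 the nearest arrays of the groups were 0.29 to 0.45 apart and the differences were 1.61-fold to 1.81-fold. Probe sets whose name ends in x_at can hold probes that match other sequences as well. The fourth, 1418383_at, was under the limit, with signals of 1.998 and 1.74 in the controls and 1.99 and 2.01 under Wnt3A, and its groups overlapped. Without Wnt3A replicate 1 the difference of 1449070_x_at was 0.44.

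**Figure D2:**
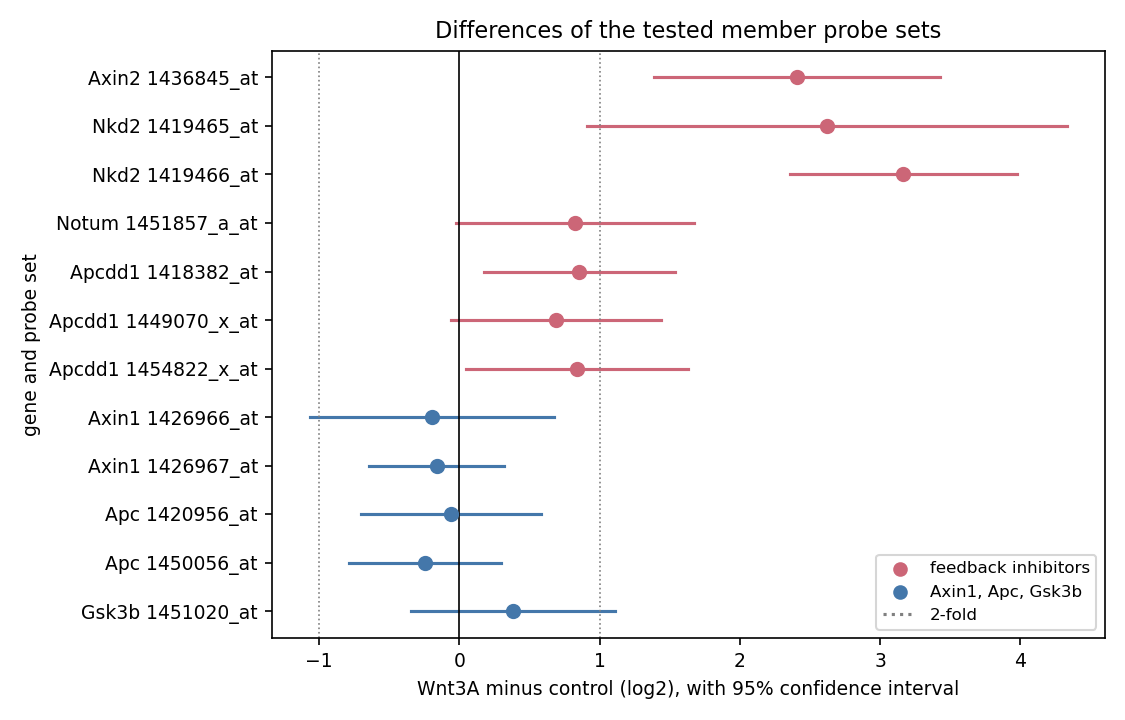
Difference in log2 signal, Wnt3A minus control (horizontal axis), with its 95% confidence interval from limma for the 12 tested member probe sets; red marks feedback inhibitors, blue Axin1, Apc and Gsk3b, and dotted lines a 2-fold difference. The intervals of Axin2 and of 1 Nkd2 probe set lie wholly beyond 1, those of 2 Apcdd1 probe sets and the other Nkd2 probe set lie above 0, and the rest cross 0.

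The feedback inhibitors differed in which Wnt3A array was the higher one. In 6 of the 7 tested probe sets Wnt3A replicate 1 was above Wnt3A replicate 2, and Axin2 was the exception, with 5.13 and 6.14. Among all tested probe sets 48.8% had replicate 1 above replicate 2 in the Wnt3A group. Control replicate 1 was above control replicate 2 in 5 of the 7, against 46.5% of all. The probe sets of Nkd2 and Apcdd1 share source sequences, so these counts hold fewer genes than probe sets.

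Axin1, the constitutive counterpart of Axin2, did not separate the groups in its brighter probe set. Probe set 1426966_at read 5.51 and 6.27 in the controls and 5.58 and 5.81 under Wnt3A, so both Wnt3A arrays lay between the controls. The difference of -0.20 (SE 0.33, interval -1.06 to 0.67) was 0.18 without control replicate 2. Probe set 1426967_at read 3.46 and 3.55 in the controls and 3.35 and 3.34 under Wnt3A. These groups did not overlap but stood only 0.11 apart, with a difference of -0.16 (interval -0.64 to 0.32).

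Apc, the large scaffold that carries β-catenin within the complex, had 3 probe sets with small differences. Probe set 1420956_at read 6.65 and 6.24 in the controls and 6.43 and 6.34 under Wnt3A. Its Wnt3A arrays lay between the controls, and the difference was -0.06 (SE 0.25, interval -0.71 to 0.58) and 0.14 without control replicate 1. Probe set 1450056_at read 3.48 and 3.15 in the controls and 3.15 and 2.99 under Wnt3A, a difference of -0.25 (interval -0.79 to 0.30), with only 0.00492 between the nearest arrays. Leaving out control replicate 1 gave -0.08 and leaving out control replicate 2 gave -0.41. The third, 1420957_at, was under the limit, at 2.09 and 1.71 in the controls and 2.14 and 1.77 under Wnt3A. Gsk3b, the gene of the kinase, read 6.34 and 6.67 in the controls and 6.65 and 7.13 under Wnt3A. The groups overlapped, and the difference was 0.38 (SE 0.28, interval -0.34 to 1.11), with values of 0.14 without Wnt3A replicate 2 to 0.62 without Wnt3A replicate 1. With the deposited scaling and all 4 arrays, the intervals of the 4 tested Axin1 and Apc probe sets exclude a 2-fold rise. Those of all but Axin1 1426966_at exclude a 2-fold fall, and the interval of Gsk3b includes a 2-fold rise. Scaling to the hybridization controls raised the SE of Apc 1420956_at from 0.25 to 0.37. Intervals under that scaling are not given, so these exclusions are stated for the deposited scaling only.

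Scaling the arrays to their 18 spiked hybridization control probe sets, whose means were 7.42 and 7.57 in the controls and 7.35 and 7.00 under Wnt3A, changed the calls. It moved the median difference of all tested probe sets from -0.00371 to 0.32, called 68 of them at an adjusted p of 0.05 in limma, and called 3 of the members, which were Axin2 (2.73, adjusted p = 0.0210) and both Nkd2 probe sets (3.49, adjusted p = 0.000737, and 2.94, adjusted p = 0.0202). Under that scaling the 4 tested Axin1 and Apc probe sets lay above 0, at 0.07 to 0.26, less than the median of all probe sets. It put 12 of the 12 tested members above 0 in place of 8, and 85.1% of all tested probe sets in place of 49.4%. The signs of Axin1 and Apc therefore turn with the scaling. Those of the 7 feedback probe sets were positive under every alternative that gave them a value, but most alternatives could not turn them. Both Wnt3A arrays lay above both controls, so leaving out 1 array keeps the sign. The block, the filters and the trend setting leave a difference as it was, and scaling to the hybridization controls raised all differences alike.

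**Figure D3:**
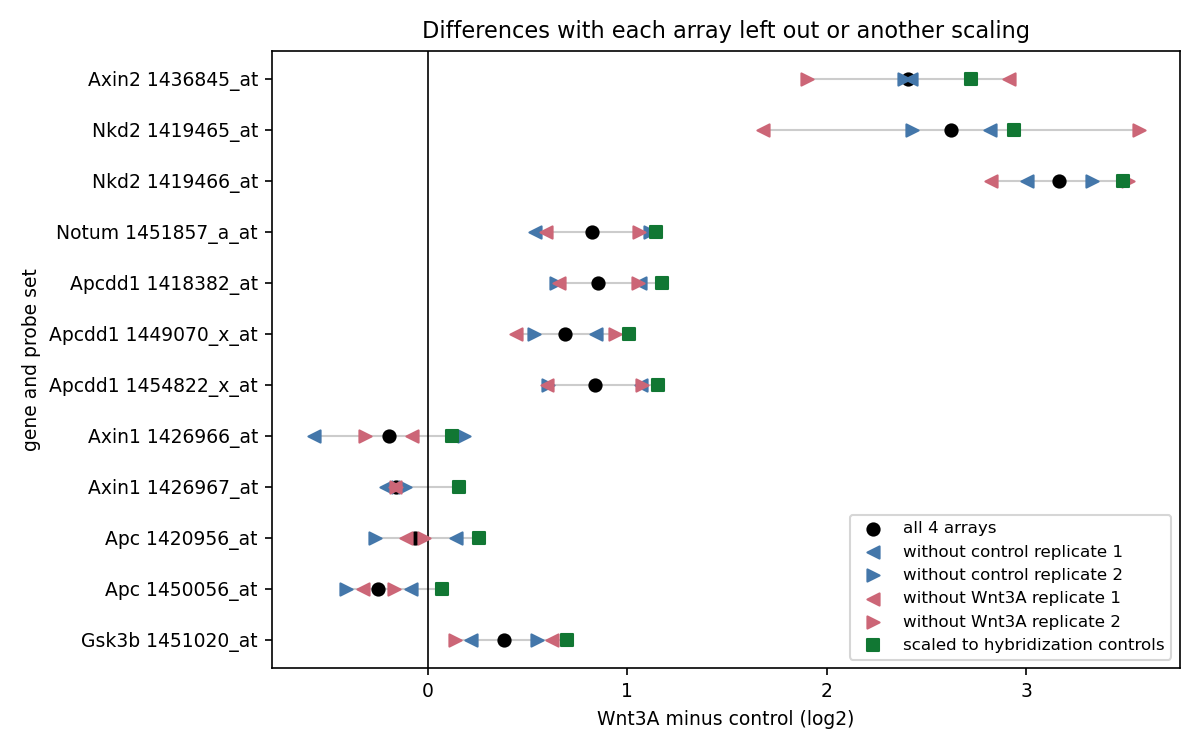
Difference in log2 signal, Wnt3A minus control (horizontal axis), of the 12 tested member probe sets with all 4 arrays (black), with 1 array left out (blue for a control, red for a Wnt3A array; left-pointing for replicate 1, right-pointing for replicate 2) and after scaling to the hybridization controls (green). All points of the feedback inhibitors lie above 0, as those with 1 array left out must where the groups do not overlap. Those of Axin1 and Apc lie on both sides of 0 or turn above it with the scaling.

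Of all tested probe sets 3.03% were at least 2-fold apart without overlap in either direction, and 227 were so in the upward direction, of which 3 were members. The 3 probe sets of Notum and Apcdd1 nearest to the 2-fold limit stood 452nd, 474th and 484th by upward difference.

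**Figure D4:**
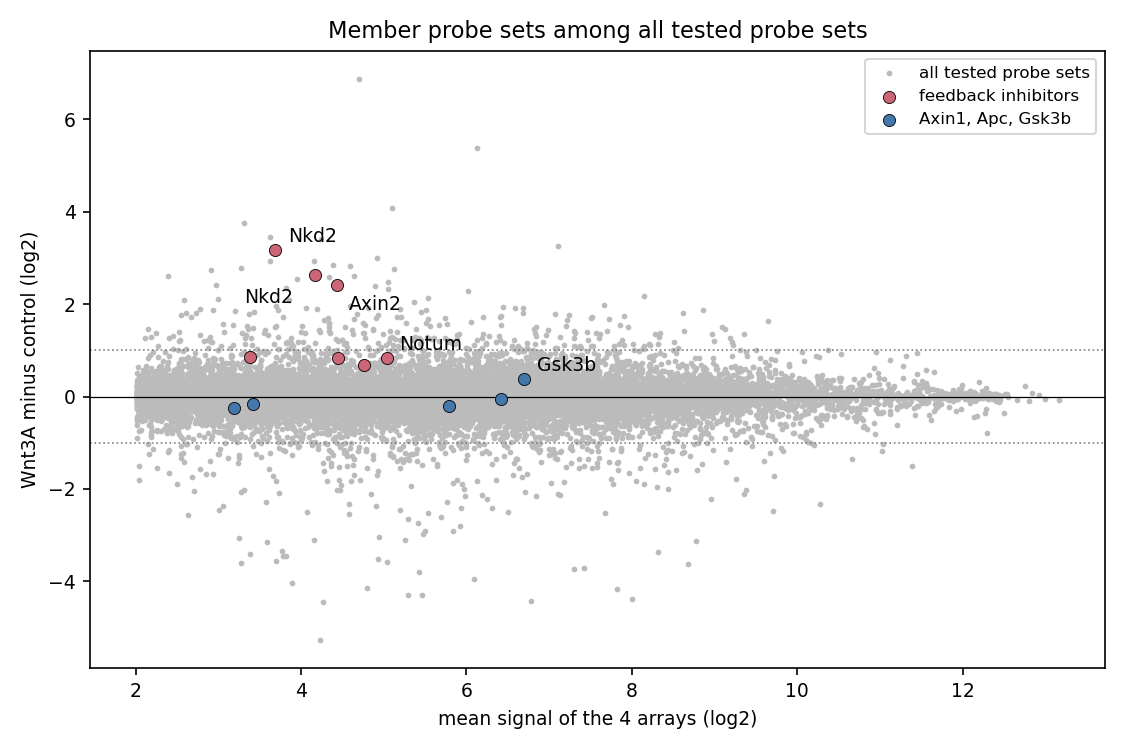
Difference in log2 signal, Wnt3A minus control (vertical axis), against the mean log2 signal of the 4 arrays (horizontal axis) for the 16969 tested probe sets (grey), with feedback inhibitors in red and Axin1, Apc and Gsk3b in blue; dotted lines mark 2-fold. Axin2 and both Nkd2 probe sets stand at 2.41 to 3.17, above the bulk of probe sets of like signal, and the blue points lie between -0.25 and 0.38.

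The genes whose 4 signals ran most like those of Axin2 and Nkd2 were found by the root mean square distance of their mean-centred log2 signals over the 4 arrays, which is a description. Nearest to Axin2 probe set 1436845_at were Gsta2, a glutathione transferase (distance 0.23), Cxcr6, a chemokine receptor (0.24), Edn1, the endothelin precursor (0.27), Aplnr, the apelin receptor (0.31), and Alpl, an alkaline phosphatase (0.32). Nearest to Nkd2 probe set 1419465_at was Sfrp2, a secreted Wnt antagonist, at a distance of 0.15. After it came Ch25h, a cholesterol hydroxylase (0.33), Gask1b (0.33), Gpnmb (0.35) and Tnfrsf11b, which encodes osteoprotegerin (0.54). All 10 were higher with Wnt3A, as likeness to a profile that is higher with Wnt3A requires.

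The other genes of the pathway were taken as 4 lists by their place in it. By the brightest probe set of each gene, 0 of 9295 genes were called in limma (0%), 528 had an unadjusted p under 0.05, and the median difference of all genes was -0.02. Of all genes 47.0% were higher with Wnt3A, and 83.5% after scaling to the hybridization controls, which also moved the split in each list. At least 2-fold without overlap were 1.54% of genes in the upward and 2.09% in the downward direction. Higher without overlap at any size were 14.7% of genes, and lower 19.8%. The 7 tested members had a median of 0.69 on the same measure. Apcdd1, the gene at that median, differed by 1.01 after scaling to the hybridization controls. With the deposited scaling 4 of the 7 were higher without overlap and 0 lower without overlap, and 2 of the 7 (Axin2 and Nkd2) were at least 2-fold higher.

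Of 26 other inhibitors of Wnt signalling, 19 were on the array and 12 were tested; 6 were higher and 6 lower (9 and 3 after scaling to hybridization controls), with a median difference of -0.05 (0.27 after that scaling). At least 2-fold apart without overlap were 1 higher and 2 lower. Sfrp2 read 1.93 and 1.85 in the controls and 5.70 and 3.63 under Wnt3A, a difference of 2.78 (SE 0.70), where its control signals lay under the limit for dim probe sets. With signals under the limit raised to it the difference was 2.66, and without Wnt3A replicate 1 it was 1.74. Dkk3, of the Dickkopf family, read 6.19 and 5.98 in the controls and 4.55 and 2.89 under Wnt3A, a difference of -2.36 (SE 0.58) that was -1.53 without Wnt3A replicate 2. Sfrp4, another secreted Frizzled-related protein gene, differed by -2.06. Dkk2 differed by 0.96, with values of 0.42 without control replicate 2 to 1.49 without control replicate 1.

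Of 25 other parts and regulators of the destruction complex, 21 were on the array and 20 were tested, 9 being higher and 11 lower (17 and 3 after scaling to hybridization controls); their median was -0.03 (0.28 after that scaling). None was 2-fold apart, and the range was -0.47 to 0.36. Fbxw11, an F-box protein that recognises phosphorylated β-catenin, differed by 0.36, and Skp1, the adaptor of the same ubiquitin ligase, by -0.47 (-0.22 without Wnt3A replicate 2 and -0.71 without Wnt3A replicate 1). Tnks2, a tankyrase that marks axins for degradation, differed by -0.34 (0.015 in its other probe set) and Caprin2 by -0.41 (-0.21 without control replicate 2).

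Of 24 genes on the receptor and Dishevelled side, 20 were on the array and 16 were tested, 8 being higher and 8 lower (15 and 1 after scaling to hybridization controls); their median was 0.00353 (0.32 after that scaling). Fzd4 alone was at least 2-fold apart without overlap. Fzd4, a Frizzled receptor, had means of 4.73 ± 0.03 without and 3.68 ± 0.16 under Wnt3A (SD, n = 2), a difference of -1.04 (SE 0.21), but its second probe set, under the limit, gave 0.05. Fzd7 differed by 0.84, with values of 0.39 without Wnt3A replicate 2 to 1.30 without Wnt3A replicate 1. Dvl1, 1 of the Dishevelled genes, and Fzd2 both differed by 0.35. Without control replicate 1 these were 0.19 and 0.11, and without control replicate 2 they were 0.52 and 0.59.

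Of 18 genes of β-catenin and its nuclear partners, 16 were on the array and all 16 were tested. Higher were 9 and lower 7 (15 and 1 after scaling to hybridization controls); the median was 0.14 (0.46 after that scaling), and 3 were at least 2-fold higher and 1 lower without overlap. Lef1, the DNA-binding partner, read 2.68 and 2.59 in the controls and 5.09 and 3.10 under Wnt3A, a difference of 1.46 (SE 0.67) that was 0.46 without Wnt3A replicate 1. Tle1, a Groucho corepressor, differed by 1.22 (SE 0.24), Ctbp2, another corepressor, by 1.05 (0.65 without Wnt3A replicate 2) and Tle2 by -1.51 (-0.84 without control replicate 2 and -0.93 without Wnt3A replicate 2). Tcf7l2 differed by 0.81 (0.53 without Wnt3A replicate 1), and its 3 other probe sets by 1.42, 0.64 and -0.24. Ctnnb1, the gene of β-catenin, read 11.64 and 11.51 in the controls and 11.53 and 11.35 under Wnt3A. Its 3 probe sets differed by -0.28 to -0.14. Scaling to hybridization controls raises every difference by the same amount, so all 3 then lie above 0, the brightest at 0.18.

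**Figure D5:**
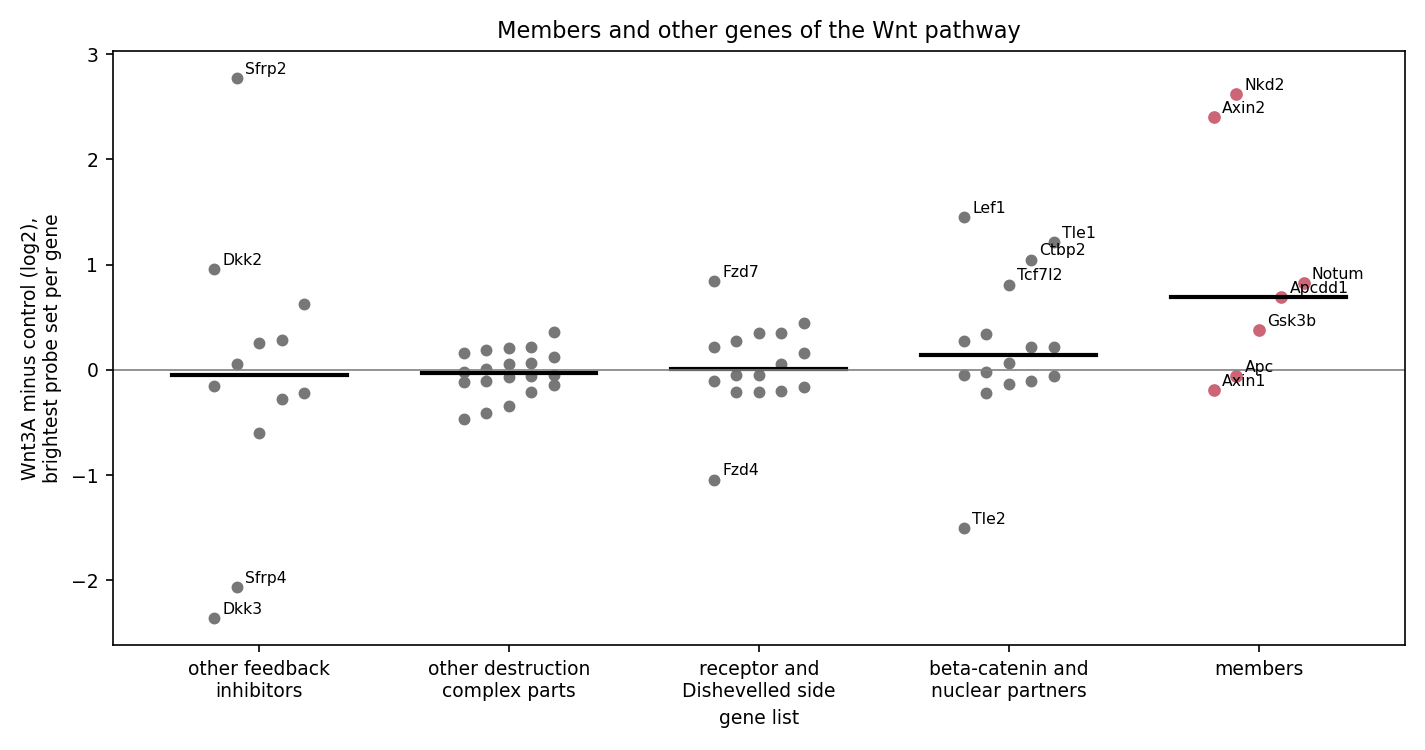
Difference in log2 signal, Wnt3A minus control (vertical axis), of the tested genes of 4 Wnt pathway lists (grey) and of the 7 tested members (red), each gene by its brightest probe set; black bars are medians. The list medians lie between -0.05 and 0.14 and that of the members at 0.69. After scaling to hybridization controls, not drawn, the list medians are 0.27 to 0.46. Apcdd1, the member at the median, is then at 1.01. As drawn, the other parts of the destruction complex keep within -0.47 and 0.36.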

How the data were processed

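Expression was measured on 4 Affymetrix arrays, 2 of control and 2 of Wnt3A-treated C2C12 cells in G0. The authors deposited a single processed value for every probe set on each array. The submitters' processing notes list GCOS and PLIER, without version or role. The sources used here do not give the normalization, the centring or the build. Values the authors deposited were read as log2 signals from their range of 0.50 to 13.23, as the base is not stated; another base would rescale every difference and fold. Column medians lay between 4.15 and 4.22 and nothing was normalized again. The table gives no detection calls. RNA was isolated with Trizol, per the labels' protocols, which mention Wnt3A for the controls too, so groups and replicate numbers came from the titles.

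Symbols came from the platform annotation, updated by Entrez ID to RefSeq for 20351 of 20380 probe sets with 1 symbol; 691 with several and 1555 with none were not named. No member was found only by an alias or among several symbols. The dimmest 25% by mean signal were left out, and 16969 probe sets were fitted with limma 3.58.1 under R 4.3.3 (lmFit, eBayes with intensity trend, group as the only term, two-sided, Benjamini-Hochberg over all of them, threshold 0.05), with 4.77 moderated degrees of freedom. The procedure was run on simulated data with independent noise on each array, and only the bias of the differences was checked there. Deviations of same-numbered arrays correlated at 0.52 in the real data, which the simulation left out. Pathway and marker genes were taken by their brightest probe set, for which the limit was 2.18.

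Named were all members with every probe set, up to 4 genes per pathway list by lowest p with Ctnnb1 and Lef1 in any case, and the 5 genes nearest in pattern to Axin2 and to Nkd2. Genes named only as examples of their marker list were chosen after their values were seen. The members and lists were chosen with earlier results of these data known. The alternatives were a replicate block, each array left out, 3 scalings, 2 filters, a floor, no intensity trend and 2 ways to reach 1 value per gene. Promoters are RefSeq sequences of GRCm38.p6, found for 4 of the 8 members.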

Additional observations from a re-analysis of the deposited data

How the results depend on the processing

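With 2 arrays per group and no detection calls, precision is limited by the number of arrays, and signals near 2.01 by background. Of the 12 tested member probe sets, 8 kept their direction under each of the 14 alternatives that gave a value. The other 4, of Axin1 and Apc, turned. Probe sets under a stricter limit, or not the brightest of their gene, gave no value there. For the 7 feedback probe sets this count is no support, since leaving out 1 array cannot turn groups that do not overlap. A block, a filter or the trend setting leaves a difference unchanged, and scaling to hybridization controls raised all differences alike. The replicate number as a block, which the labels do not tie to a shared culture or day, called 83 probe sets, 2 of them members: Axin2 1436845_at (adjusted p = 0.0450 in limma) and Nkd2 1419466_at (adjusted p = 0.0156); deviations of same-numbered arrays correlated at 0.52 across probe sets. Scaling to hybridization controls called 68 probe sets and 3 members, put 7 member probe sets at least 2-fold apart without overlap in place of 3 (713 of all probe sets in place of 515), and turned Axin1 to 0.12 and 0.16, Apc to 0.26 and 0.072 and Ctnnb1 to 0.18; it also moved the medians of the other inhibitors to 0.27, the other complex parts to 0.28, the receptor side to 0.32 and the nuclear partners to 0.46. With the dimmer 50% left out 7 member probe sets were tested and 1 was 2-fold apart (386 of 11313 in all), and medians were -0.28 for the other inhibitors, 0.22 for the receptor side and -0.033 for the nuclear partners. With 1 array left out, calls stayed at 0 over all probe sets and 0 for members, and member probe sets 2-fold apart ranged from 3 to 6, under a rule that is met more easily by 3 arrays (565 to 1531 of all 16969). The medians then ranged from -0.13 to 0.13 (other inhibitors), -0.094 to 0.054 (complex parts), -0.066 to 0.10 (receptor side) and -0.021 to 0.19 (nuclear partners). Axin1 1426966_at then ranged from -0.57 to 0.18 and Apc 1420956_at from -0.27 to 0.14. The causes were not tested.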
